A study of Mus musculus with 28 samples.

Results

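Of 28661 counted features of the mouse genome, 60 were higher in cultured hippocampal than in cultured cortical neurons in both of the ways in which single neurons had been collected. The 60 are called hippocampus-high features here, and they were chosen by their cultured levels alone. Levels are in CPM, the count of a feature per 1000000 reads assigned to features in its library. The value used for choosing was the mean over a group's libraries of log2(CPM + 10). A feature entered the set when its hippocampal mean exceeded its cortical mean by 1 or more among neurons captured with the TIVA tag and also by 1 or more among neurons collected by pipette. The value averages logs over libraries, so it does not fix the ratio of mean levels: uc008ada.2, described below, had a cultured pipette difference of 1.31 and mean CPM that differed 1.41-fold. The added 10 CPM makes it understate the change of features with few reads.

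The hippocampus and the neocortex are neighbouring parts of the forebrain whose excitatory neurons arise from adjoining stretches of the embryonic pallium. They share most of the genes that any neuron needs, and differ in transcription factors, adhesion molecules, receptors and signalling proteins that mark their fields and layers. Neurons grown in dishes lose their neighbours and layers, while neurons in a slice keep them, so a regional difference seen in dishes can be looked for in tissue. TIVA, transcriptome in vivo analysis, uses a caged tag that enters cells and is opened by a laser in the cell of choice. The opened tag pairs with the poly(A) tails of that cell's messenger RNA, which is then captured, whereas a pipette draws up the cell body with whatever adheres to it.

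All libraries were from C57BL/6 mice. The cultured neurons had been on coverslips for 7 to 9 days: 4 cortical and 4 hippocampal TIVA neurons, and 4 cortical and 3 hippocampal pipette neurons. The tissue came from mice 8 to 10 days old and gave 5 hippocampal and 2 cortical TIVA neurons, 3 hippocampal pipette neurons and 3 bulk samples of hippocampus. The tag was given to cultures at 10 µM for 15 min and opened at 30% laser power, and to slices at 30 µM for 90 min and opened at 80%, so culture and tissue also differ in capture. No tag setting was taken from the labels for the pipette groups, and whether those of tissue had a tag is unclear. The protocol text of the hippocampal tissue pipette neurons describes TIVA capture, and that of the cortical tissue TIVA neurons names the hippocampal CA1 field. Grouping followed the source names in both cases. By those names the 28 libraries held no cortical tissue pipette neurons and no bulk cortex.

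Each single-neuron library was 1 cell, with no animal, slice or dish named in its labels. Each group therefore counted as a single sample, no test was run, and differences are given as sizes beside the values of the libraries. Assigned reads, given in M (1000000 reads), ranged from 5.30 M in a cortical tissue neuron to 59.0 M in a bulk library. The 2 cortical tissue neurons were the shallowest group, at 7.89 and 5.30 M, against 24.1 to 33.4 M in the hippocampal tissue TIVA neurons. They also held the fewest features when all libraries were thinned to 5.30 M reads, 7873 and 6841, against 8973 to 10744 in the hippocampal tissue TIVA neurons and 12308 to 20024 in the cultured neurons. Reads outside any feature made up 15.8% to 81.1% of a library, and were most in the cultured cortical pipette neurons at 46.7% to 81.1%. The features carry UCSC identifiers for which no symbol could be attached, so they are described by their values, neuronal and other cell-type markers could not be checked, and 4 features are printed by identifier.

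In culture, the difference that placed a feature in the set had a median of 1.35 among TIVA neurons, with a range from 1.01 to 2.42, and 7 of the 60 reached 2. Among pipette neurons its median was 2.22, the range was 1.03 to 5.37, and 37 reached 2. The pipette difference was the larger of the pair for 50 of the 60, against 67.2% of the 6847 features used as a comparison set below. These values chose the set and describe it only. Over all features, 0.422% reached 1 in the TIVA neurons (121 features) and 5.6% in the pipette neurons (1605 features). The set was thus 49.6% of the TIVA list and 3.74% of the pipette list. For the features nearest the edge of the set the TIVA difference was the smaller of the pair. The last 3 features inside had TIVA differences of 1.01, 1.02 and 1.03 beside pipette differences of 2.29, 3.35 and 1.49. The first 3 outside had 0.993, 0.992 and 0.985 beside 1.38, 1.20 and 1.88. The pipette difference bounded the set as well, with a lowest value of 1.03 inside it.

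**Figure D1:**
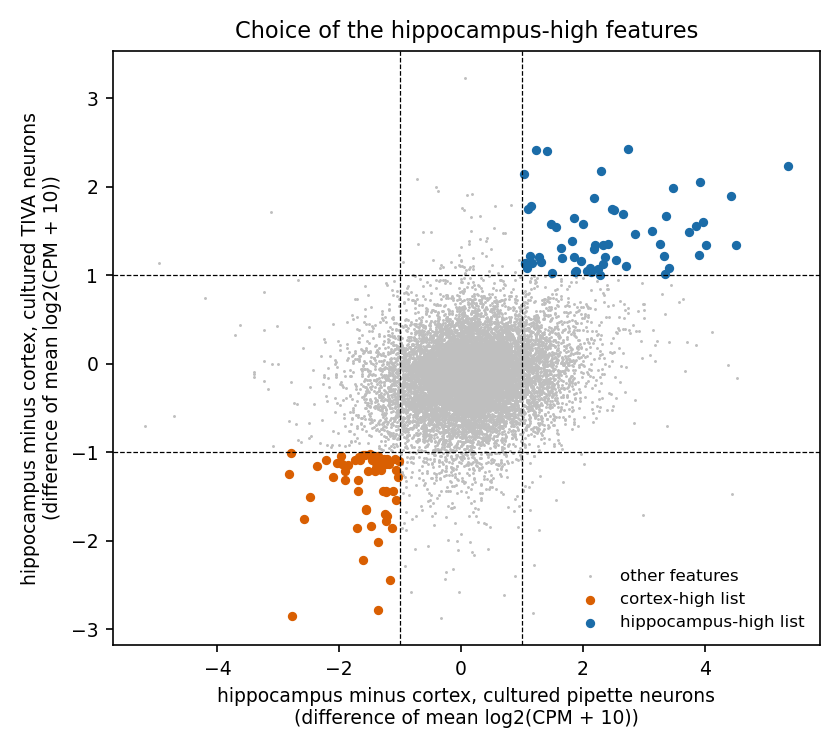
Hippocampus minus cortex difference of mean log2(CPM + 10) in cultured pipette neurons (x axis) and cultured TIVA neurons (y axis), 1 point per feature, with dashed lines at 1 and -1. The 60 hippocampus-high features (blue) fill the upper right corner, where few of the 28661 features lie; the 61 cortex-high features (orange) are those at -1 or less on both axes.

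The cultured levels behind these differences were moderate. Group means of the 60 features had a median of 149 CPM in hippocampal pipette neurons (range 22.0 to 1617) and 69.9 CPM in hippocampal TIVA neurons (15.6 to 1034). The cortical medians were 31.5 CPM for pipette and 19.7 CPM for TIVA neurons. In cortical pipette neurons 13 features were below 1 CPM, and in cortical TIVA neurons none was, so in the TIVA groups all 60 were lower in cortex without being absent from the group. Hippocampal and cortical libraries did not overlap for 48 features among TIVA neurons (80.0%, against 1.09% of all features). Among pipette neurons they did not overlap for 41 (68.3%, against 9.79%), and 34 features (56.7%, against 0.325% of all features) had no overlap in either collection. These counts follow from the choice and say only how evenly the libraries of a group carried it. The sum over the 60 features was 17577 to 21531 CPM in each hippocampal pipette neuron and 2803 to 7519 CPM in the cortical ones. In the TIVA neurons it was 5149 to 12583 CPM in hippocampus and 1286 to 2721 CPM in cortex.

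The first comparison outside the choice asked whether the same features were higher in hippocampal than in cortical neurons captured by TIVA in slices. In this tissue pair, 34 of the 60 features (56.7%) were higher in hippocampus by 1 or more, 2 (3.33%) were lower by 1 or more, and 24 lay between. The difference had a median of 1.25, quartiles of 0.56 and 2.35, and a range from -2.23 to 5.69, and 51 features were above 0. Over all 28661 features, of which 58.1% were below 1 CPM in every hippocampal tissue TIVA neuron, 13.7% were higher in hippocampus by 1 or more and 3.2% lower. The closer comparison set is the 6847 features, the 60 included, that reach, in both cultured hippocampal groups, the level that membership requires. Of these 46.6% were higher by 1 or more and 7.84% lower, with a median of 0.90, and 5296 of them were above 0. The share of the hippocampus-high features thus lay above a background that was itself high.

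That margin depended on the scaling. With TMM factors, which re-choose the set as 87 features, 42.5% were higher by 1 or more against 43.0% of the comparison set, and the margin was gone. With DESeq2 size factors the shares were 37.0% and 30.4%, and with every library thinned to the smallest they were 54.0% and 46.5%. A pseudocount of 1 CPM gave 55.4% and 53.2%, and summed counts of each group gave 71.1% and 48.5%. The median of the set was above that of the comparison set at 0.90 against 0.79 with TMM, 0.59 against 0.36 with DESeq2, 1.21 against 0.90 after thinning, 1.23 against 1.16 with the pseudocount of 1 CPM and 1.59 against 0.95 from summed counts. The depth of the cortical tissue neurons and their small number of features move with region here. The thinned values are as given, and the part of the feature number in the result was not tested. Under a minimum mean of 5 CPM over the tissue TIVA groups, which 54 of the 60 passed, 43.8% of all 8951 passing features were higher by 1 or more and 10.2% lower. The 34 higher and 2 lower features of the set were all among the 54. The matching minimum for the pipette comparison below left 47 of the 60 and 8115 features, of which 38.6% were higher by 1 or more and 14.2% lower.

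**Figure D2:**
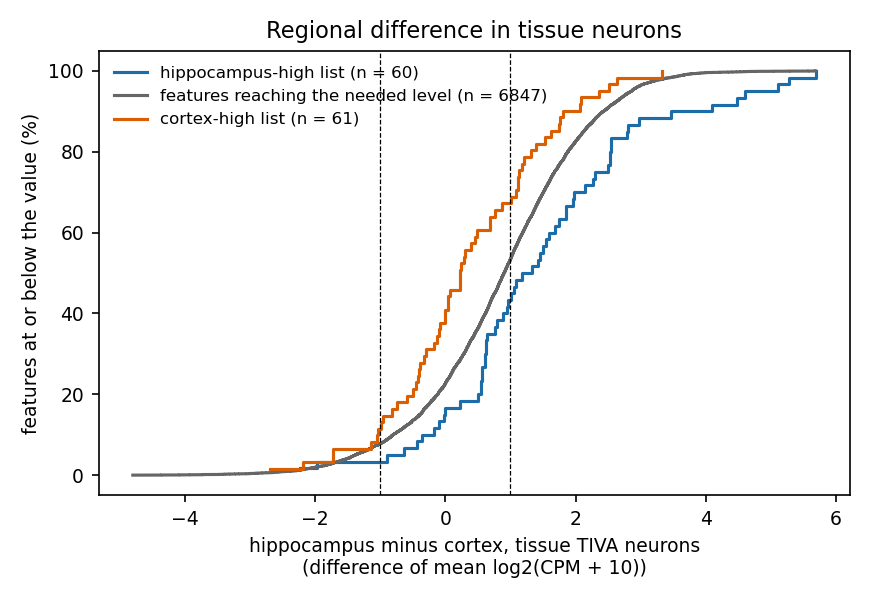
Share of features (y axis, %) at or below each hippocampus minus cortex difference of mean log2(CPM + 10) in tissue TIVA neurons (x axis), for the 60 hippocampus-high features (blue), the 61 cortex-high features (orange) and the 6847 features reaching the needed level in cultured hippocampus (grey). Over most of the range the blue curve lies to the right of the grey one and the orange to its left, with medians of 1.25, 0.22 and 0.90.

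The mirror-image list gives the other side of the picture. It holds the 61 features that were lower in cultured hippocampus than in cultured cortex by 1 or more in both collections. In tissue TIVA neurons 20 of them (32.8%) were higher in hippocampus by 1 or more and 7 (11.5%) were lower. Their median was 0.22, against 0.87 for the 6687 features that reach the same level in both cultured cortical groups, of which 45.7% were higher and 8.28% lower. The median of each list therefore lay on the side of its own background that its cultured difference has. Under TMM the cortex-high median was 0.083, and under DESeq2 size factors -0.013.

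Looked at neuron by neuron, the tissue separation was clear for fewer features. For 23 of the 60 (38.3%), each of the 5 hippocampal TIVA neurons was above both cortical ones. Over all features this held for 8.51%, over those passing the 5 CPM minimum for 22.9%, and in the comparison set for 24.6%. The 38.3% was over all 60, of which 54 passed that minimum, and the share among the 54 was not computed. The reverse, every hippocampal neuron below both cortical ones, held for 0 of the 60, for 2.88% of the comparison set, 2.89% of those passing the minimum and 1.07% of all features. In the cortex-high list the hippocampal neurons were all above for 3 features and all below for 2. The 34 features higher by 1 or more had a median level of 113 CPM in the hippocampal TIVA neurons and 2.03 CPM in the cortical ones. In cortex 16 of them were below 1 CPM, and 8 had no read in either neuron. For the 24 features in between, the medians were 19.5 CPM in hippocampus and 21.2 CPM in cortex. Their cultured differences had medians of 1.29 among TIVA and 2.35 among pipette neurons, against 1.35 and 2.19 for the 34.

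Absence from the cortical tissue neurons was more frequent in the set than in the comparison set, though less frequent than over all features, most of which have few reads. Presence in every hippocampal TIVA neuron was about as frequent as in the comparison set. In 14 of the 60 features (23.3%) neither cortical tissue neuron had a read, against 9.65% of the comparison set and 66.4% of all features; a count of 0 allows up to 3 reads, or 0.380 and 0.567 CPM. In those 2 libraries, of 5.30 and 7.89 M reads, 22 of the 60 (36.7%) were below 1 CPM in both, against 19.2% of the comparison set, 24.6% of the cortex-high list and 73.3% of all features. By comparison, 24 of the 60 (40.0%) were at 10 CPM or more in all 5 hippocampal TIVA neurons. This was close to the 42.7% of the comparison set, and over all features the share was 10.5%. Only 4 features (6.67%) combined 10 CPM or more in every hippocampal TIVA neuron with less than 1 CPM in both cortical ones. The combination held for 1.90% of the comparison set, 0.548% of all features and 0 of the cortex-high list. At the other end, 15 features (25.0%) were at 10 CPM or more in both cortical neurons, against 29.1% of the comparison set and 7.39% of all features.

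Counted per library, the number of the 60 features at 10 CPM or more was 46, 32, 41, 36 and 50 in the 5 hippocampal TIVA neurons of tissue. It was 24 and 19 in the 2 cortical neurons, so the groups did not overlap. The hippocampal tissue pipette neurons held 34, 33 and 42. As shares these were 53.3% to 83.3% in hippocampal TIVA, 40.0% and 31.7% in cortical TIVA, and 55.0% to 70.0% in hippocampal pipette neurons. The comparison set had 70.5% to 84.3%, 54.2% and 39.5%, and 63.9% to 73.5% in the same groups. The share of the set was thus below that of its background in every tissue neuron except hippocampal TIVA neuron 5. In cultured hippocampus, where the choice was made, 57 to 60 features per library were at 10 CPM or more. At equal depth, after thinning to 5.30 M reads, 45 to 55 of the 60 had a read in a hippocampal TIVA neuron, 49 or 50 in a pipette neuron, and 39 and 33 in the cortical neurons. The comparison set went the same way, from 89.6% to 96.9% in hippocampal TIVA and 90.3% to 94.4% in pipette neurons to 79.6% and 74.0% in the cortical ones. The set, at 75.0% to 91.7%, 81.7% to 83.3%, and 65.0% and 55.0%, was below it in every tissue neuron except hippocampal TIVA neuron 5.

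**Figure D3:**
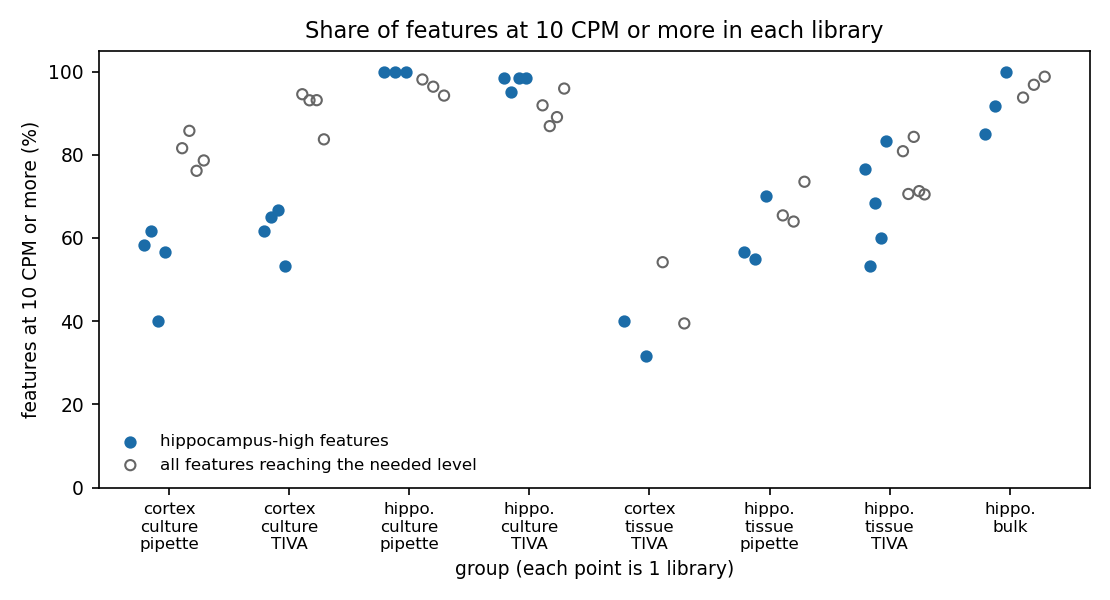
Share of features at 10 CPM or more (y axis, %) in each of the 28 libraries, grouped on the x axis, for the 60 hippocampus-high features (filled) and the 6847 features of the comparison set (open). The 2 cortical tissue neurons are low for both sets, at 40.0% and 31.7% of the hippocampus-high features, with 1 cultured cortical pipette neuron also at 40.0%, and the cultured hippocampal neurons, on which the choice was made, are at 95.0% or more.

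The summed level showed a wider gap than the counts of features. The 60 features together made up 14771, 18692, 14676, 10081 and 17772 CPM in the 5 hippocampal TIVA neurons, and 3846 and 2643 CPM in the 2 cortical ones. The pipette neurons had 19338, 12592 and 10653 CPM, and the bulk samples 7174, 9449 and 9258 CPM. Every hippocampal tissue neuron therefore lay above every bulk library and both cortical neurons. The most abundant of the 60 in each library carried much of this sum, 17.5% to 30.9% in the hippocampal TIVA neurons and 26.0% to 51.2% in the pipette neurons. It was not the same feature in every neuron. The sum is thus weighted to a few abundant features, while the counts above weigh all 60 alike.

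The hippocampal tissue neurons collected by pipette were the other group against which the set could be read, though the only cortical tissue neurons to set beside them were the 2 TIVA neurons already used. The comparisons share those 2 libraries, and region and collection differ together in this one and cannot be told apart. Here 23 of the 60 features (38.3%) were higher in hippocampus by 1 or more and 6 (10.0%) were lower. The shares over all features were 10.9% and 4.01%, and over the comparison set 36.4% and 10.7%, so the count lay at the background. The median was 0.71, with a range from -3.65 to 5.88, against 0.58 in the comparison set. Without the pipette neuron numbered 3 in record order it was 0.41 against 0.46, without cortical neuron 2 it was 0.48 against 0.44, and without cortical neuron 1 it was 1.19 against 0.88. The order of the set and its background was also reversed under 4 settings of scaling or pseudocount. The medians were 0.34 against 0.46 with TMM, 0.19 against 0.22 with DESeq2 size factors and 0.44 against 0.50 outside the 50 most abundant features. A pseudocount of 1 CPM gave 0.48 against 0.65. The order was not reversed after thinning, at 0.76 against 0.57, or from summed counts, at 1.08 against 0.52. Leaving out a cultured library re-chooses the set, and some of these runs reversed the order. Without cultured cortical pipette neuron 2 the medians were 0.564 against 0.580. They were 0.564 against 0.585 without cultured hippocampal pipette neuron 2 and 0.462 against 0.582 without cultured hippocampal TIVA neuron 1. The other cultured libraries left out did not reverse it. All 3 pipette neurons were above both cortical ones for 22 features (36.7%), against 25.1% of the comparison set and 8.36% of all features. All 3 were below for 2 (3.33%), against 4.92% and 1.88%. Of the features passing the 5 CPM minimum, which only 47 of the 60 did, 23.9% were above and 5.3% below. In the cortex-high list 13 features were higher and 13 lower (21.3% each, against 36.0% and 10.6% of its own comparison set), with a median of 0.00.

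Bulk hippocampus, a mixture of neurons, glia and vessels in which fewer cells of a type and less RNA per cell cannot be told apart, held most features of the set, as of the comparison set. Group means of 58 of the 60 features (96.7%, against 98.4%) were at 10 CPM or more, with a median of 79.3 CPM and a range from 5.91 to 1014 CPM. Every bulk library had a read of each of the 60, and in 50 (83.3%, against 91.9% of the comparison set) each bulk library was at 10 CPM or more. The 60 features had a higher median in bulk than the comparison set, 79.3 against 53.2 CPM. They also had the higher median in cultured hippocampus, where they were chosen. It was 149 against 57.5 CPM in pipette and 69.9 against 37.7 CPM in TIVA neurons. No comparison set matched for that level was used. In the cortical tissue neurons the order was the other way, 3.52 against 20.3 CPM. The bulk mean exceeded the cortical tissue mean for 53 of the 60 features and for 73.6% of the comparison set. Each bulk library was above both cortical neurons for 37 (61.7%, against 52.3% of the comparison set). Neither share was computed over all features.

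Against bulk, the single hippocampal neurons spread in both directions. The tissue TIVA neurons were higher than bulk by 1 or more for 9 features (15.0%, against 1.94% of all features and 6.43% of the comparison set) and lower for 18 (30.0%, against 6.86% and 18.2%). The median difference was -0.55, against -0.26. The pipette neurons were higher than bulk for 9 features (15.0%, against 2.08% and 6.6%) and lower for 30 (50.0%, against 10.9% and 31.8%), with a median of -0.96 against -0.55. Both kinds of neuron thus differed from bulk in a larger share of this set than of the comparison set, in each direction. In the cortex-high list the share lower than bulk was larger still, at 37.7% for TIVA and 57.4% for pipette neurons. The share higher than bulk was 8.20% and 6.56% there. A larger share below bulk was therefore not particular to the hippocampus-high features. One feature was below 1 CPM in all 8 hippocampal tissue neurons and averaged 71.6 CPM in bulk.

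**Figure D4:**
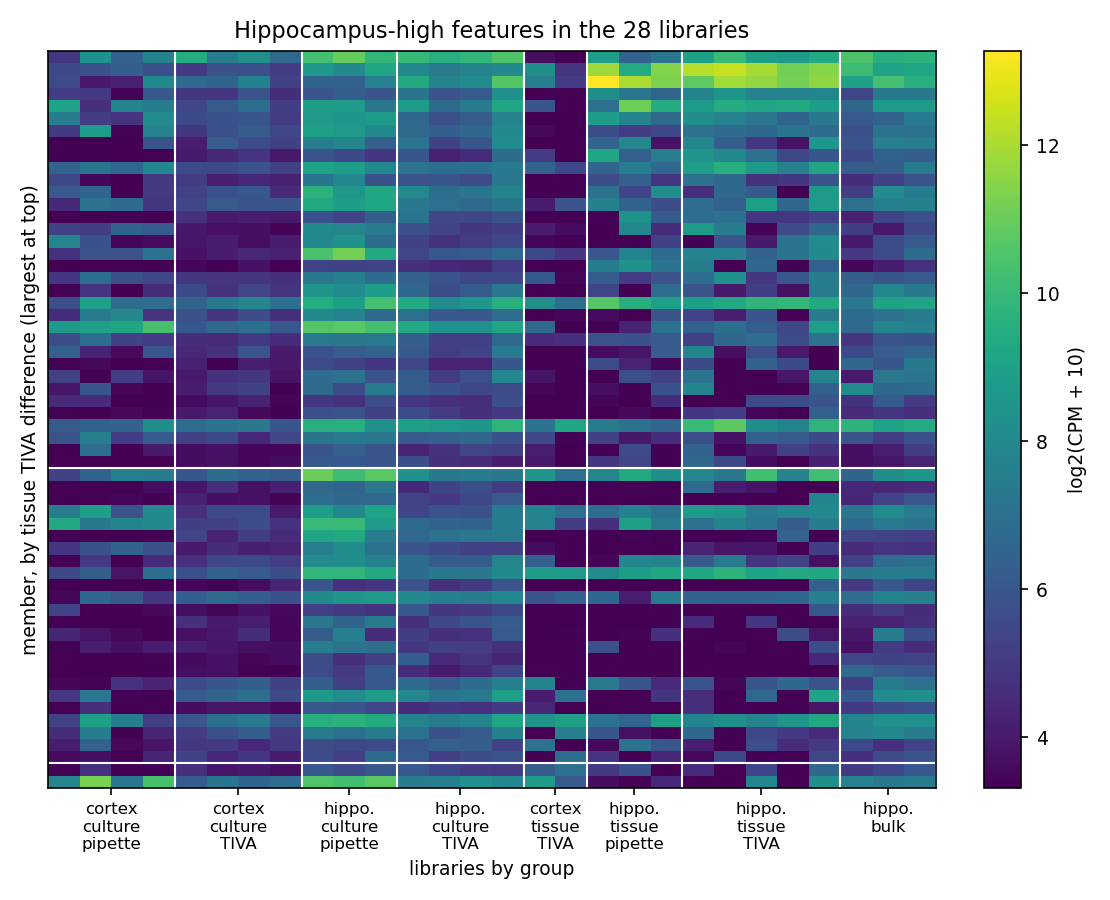
log2(CPM + 10) of the 60 hippocampus-high features (rows, ordered by the tissue TIVA difference, largest at the top) in the 28 libraries (columns, by group). White horizontal lines separate the 34 features at 1 or more in tissue, the 24 in between and the 2 at -1 or less; dark cells in the tissue columns show features near 0 in single neurons that most bulk and cultured hippocampal libraries carry.

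Individual tissue neurons differed in which of the 60 features they carried. By the number of hippocampal TIVA neurons at 10 CPM or more, 24 features were present in all 5, 7 in 4, 11 in 3, 7 in 2, 10 in 1 and 1 in none. The comparison set had 42.7% in all 5, 22.3% in 4, 15.7% in 3, 10.7% in 2, 6.21% in 1 and 2.37% in none, so the set had a larger share in 1 neuron, 16.7%, and a smaller share in 4, 11.7%. For 21 features (35.0%) 1 of these neurons was at 50 CPM or more while another was below 1 CPM. The share was 24.2% in the comparison set, 39.3% in the cortex-high list and 9.44% over all features. Taken by ordered pairs of these neurons, the median share of features at 50 CPM or more in the first and below 1 CPM in the second was 7.14%, near the 6.78% of the comparison set. Among the 3 pipette neurons 24 features were at 10 CPM or more in all, 12 in 2, 13 in 1 and 11 in none (18.3%, against 10.9%). In the cortical neurons 15 were present in both, 13 in 1 and 32 in none (53.3%, against 35.5%). The median SD of log2(CPM + 10) over libraries was 1.21 in hippocampal tissue TIVA neurons, against 1.01 for the comparison set. It was 0.93 in the pipette neurons (0.90), 0.53 in cultured hippocampal TIVA neurons (0.59) and 0.44 in cultured hippocampal pipette neurons (0.39). Bulk, with 0.62 against 0.40, also varied more in this set than in its background.

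One of the 5 hippocampal tissue TIVA neurons, numbered 5 in record order, carried the set most fully. Its 60 features differed from the cortical mean by a median of 2.38, while neurons 1 to 4 had medians of 1.36, 0.74, 0.60 and 0.46. The comparison set showed no such order: its medians were 0.94, 0.60, 1.04 and 0.66 in neurons 1 to 4 and 0.62 in neuron 5. The same neuron had the lowest median of the cortex-high features, -0.30, where the others had 0.02, 0.49, 0.36 and 0.13. It was the neuron with the highest level for 22 of the 60 features (36.7%, against 21.9% of the comparison set). At 10 CPM or more there and in no other of the 5 were 6 of the 60 features, against 78 of the comparison set (1.14%). In neurons 1 to 4 this held for 2, 0, 0 and 2 features, against 1.26%, 0.99%, 2.03% and 0.79% of the comparison set. Neuron 5 also had the fewest features of the 5 at equal depth, 8973. Without it, 34 features, 32 of them among the 34 above, were higher than in cortex by 1 or more and 4 were lower. The median was then 1.08, against 0.91 for the comparison set. By number, 40 of the 60 features were above the cortical mean by 1 or more in neuron 5, and 36, 28, 28 and 25 in neurons 1 to 4. As shares these were 66.7% in neuron 5, against 43.3% of the comparison set, and 60.0%, 46.7%, 46.7% and 41.7% in neurons 1 to 4, against 48.4%, 42.4%, 50.9% and 43.6%. In neurons 3 and 4 both the share and the median of the set were below that of the comparison set.

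Levels and identifiers of the features were compared with the tissue outcome. Of the 30 features with the higher cultured levels, 18 were higher in tissue by 1 or more, with a median of 1.72, and of the 30 with the lower levels 16 were, with a median of 1.03. The matching parts of the comparison set had 49.7% and 43.8% and medians of 0.99 and 0.85. A feature name joins the transcripts counted together, and 40 of the 60 (66.7%) join 2 or more identifiers. That is more than over all features, at 41.8%, and near the 69.9% of the comparison set. Of the 40 joined features 23 were higher in tissue by 1 or more (57.5%, against 47.9% of joined features in the comparison set). Of the 20 with a single identifier 11 were (55.0%, against 43.5%). Among the 60, 4 features form 2 pairs whose identifier numbers lie within 5 of each other. The same count was not made over all features, and whether the paired features have related or overlapping transcripts was not tested.

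The rule for printing identifiers asked for a mean of at least 20 CPM over the tissue TIVA groups, which 44 of the 60 had. Each hippocampal neuron also had to be above both cortical ones for the higher direction, which left 20, or below both for the lower direction, which left 0. The 2 with the largest difference are uc007zga.2:uc007zgd.2:uc007zge.2:uc012afq.1:uc007zgh.1:uc007zgc.1:uc007zfy.1 and uc009jmk.1:uc009jml.1. The only 2 features at -1 or less are uc008ada.2:uc008acx.2:uc008acz.2:uc008acy.2:uc008adc.1 and uc007sft.2:uc007sfs.2, printed after their values were seen. Below, each is called by its first identifier.

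The feature uc007zga.2, the joined name of 7 identifiers, was at 478, 1030, 484, 430 and 662 CPM in the 5 hippocampal tissue TIVA neurons and at 2.79 and 0.378 CPM in the cortical ones. All 5 hippocampal neurons were far above both cortical ones, which held 22 and 2 reads. Summed over neurons, the level was 622 CPM in hippocampus (95% Poisson interval 618 to 626) and 1.82 CPM in cortex (1.17 to 2.71), intervals that cover counting error only. The tissue difference was 5.69 on the log2(CPM + 10) scale, the largest of the 60. The pipette neurons of tissue had 455, 78.9 and 139 CPM, and the bulk libraries 1424, 753 and 865 CPM, so every hippocampal tissue library lay above both cortical neurons. In culture the contrast was smaller, at 1.99 and 3.48, and cortical neurons did carry the feature: cortical TIVA neurons had 710, 174, 294 and 95.1 CPM and cortical pipette neurons 20.4, 336, 76.9 and 215 CPM. The cultured hippocampal TIVA neurons had 996, 753, 919 and 1469 CPM and the pipette neurons 1262, 1923 and 954 CPM. Each of the 15 cultured libraries was thus above both cortical tissue neurons for this feature.

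The feature uc009jmk.1, which joins 2 identifiers, had the highest mean level of the set in hippocampal tissue TIVA neurons. It was at 4563, 5559, 4045, 2258 and 2844 CPM in the hippocampal TIVA neurons and at 304 and 18.3 CPM in the cortical ones, a difference of 5.28. The pipette neurons of tissue had 3567, 667 and 2773 CPM, again all above both cortical neurons. The difference rested in size on the cortical neuron set beside it: it was 7.02 without cortical neuron 1 and 3.55 without cortical neuron 2. Bulk hippocampus, at 1117, 519 and 584 CPM, was below every hippocampal tissue TIVA neuron and overlapped with the pipette neurons. Cultured hippocampal TIVA neurons, at 238, 167, 209 and 263 CPM, were below every bulk library. Cultured hippocampal pipette neurons, at 386, 250 and 565 CPM, overlapped with bulk. Cultured cortical neurons had 21.6, 45.9, 44.2 and 23.1 CPM with TIVA and 36.4, 47.0, 69.3 and 43.9 CPM by pipette, below every cultured hippocampal library. Its cultured TIVA difference of 2.42 was the largest of the 60.

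The feature uc008ada.2, a join of 5 identifiers, had cultured differences of 1.15 and 1.31 and the opposite sign in tissue, at -2.23. The hippocampal tissue TIVA neurons had 0, 0, 224, 0.207 and 298 CPM, so 3 neurons were at or near 0 and 2 were high. The cortical neurons, at 440 and 58.7 CPM, overlapped with the high ones. Without cortical neuron 1 the difference was -0.88 and no longer passed -1, and without cortical neuron 2 it was -3.59. The pipette neurons of tissue were low, at 2.55, 0.151 and 11.4 CPM, and all below both cortical neurons. Bulk hippocampus had 204, 148 and 165 CPM. In culture the pipette groups overlapped, with 1470, 1216 and 1688 CPM in hippocampus and 222, 2453, 148 and 1315 CPM in cortex, whereas the TIVA groups did not, with 174, 184, 309 and 236 CPM against 63.4, 135, 82.2 and 108 CPM.

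The feature uc007sft.2, which joins 2 identifiers, differed by 1.34 and 2.20 in culture and by -1.98 in tissue TIVA neurons. Those of hippocampus had 12.7, 0, 30.2, 0.0414 and 88.1 CPM, and those of cortex 66.0 and 113 CPM, which overlapped with hippocampal neuron 5 alone. The pipette neurons of tissue had 22.2, 47.0 and 0.0859 CPM and were all below both cortical ones, a difference of -1.87. Cultured cortical neurons were low, at 15.5, 4.81, 6.28 and 3.76 CPM with TIVA and 0, 16.9, 0 and 0.347 CPM by pipette. Cultured hippocampal neurons were higher in every library, at 55.2, 34.2, 25.3 and 24.3 CPM with TIVA and 55.0, 39.2 and 55.1 CPM by pipette. Bulk hippocampus had 22.3, 33.7 and 54.3 CPM.

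**Figure D5:**
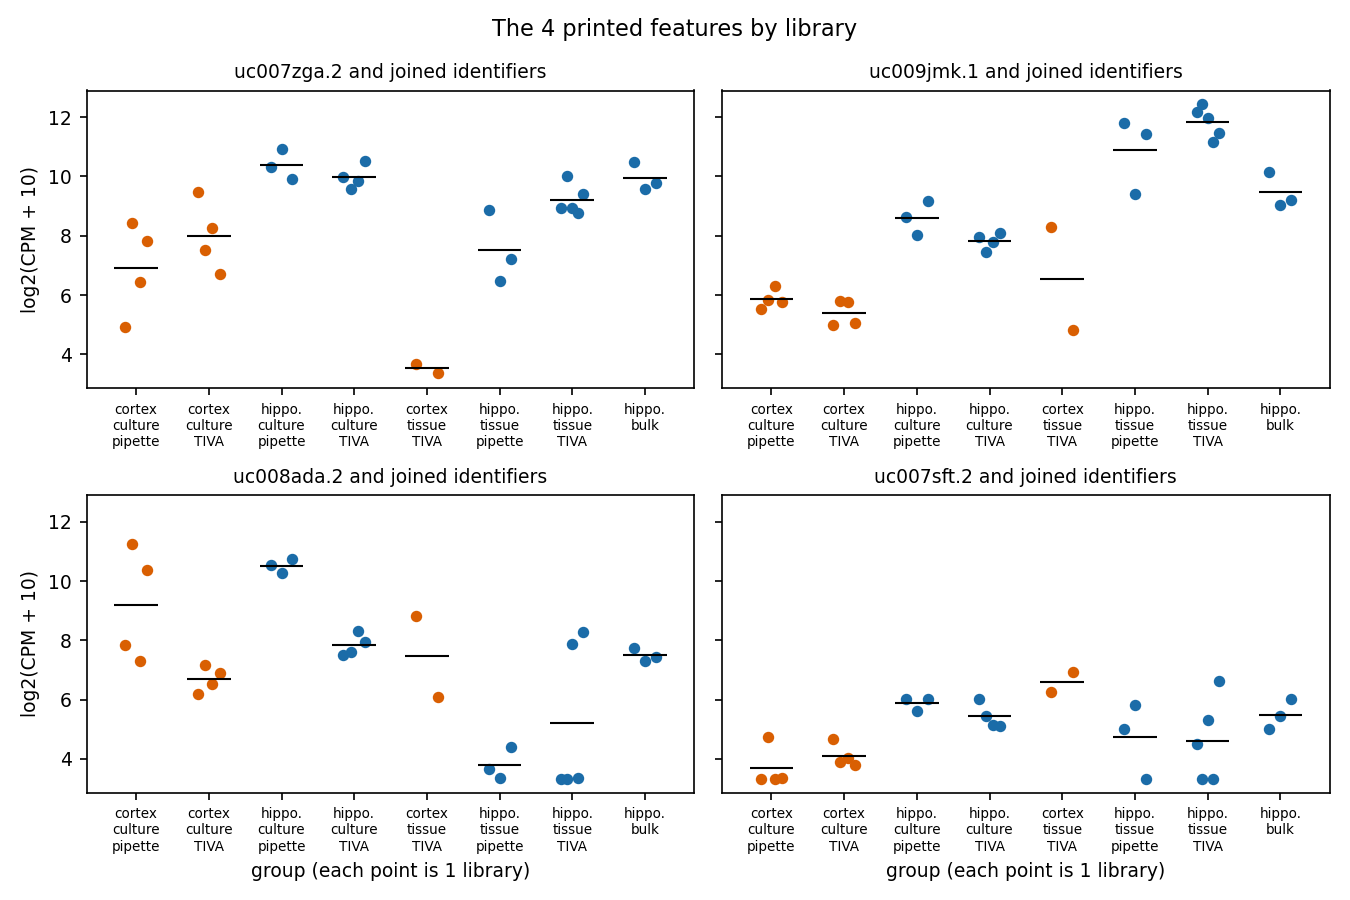
log2(CPM + 10) (y axis) of the 4 printed features in each library, by group (x axis), cortex in orange and hippocampus in blue, with a line at the group mean. The upper pair is higher in every hippocampal tissue neuron than in both cortical ones, by 5.69 and 5.28 on the TIVA means. The lower pair is on average higher in hippocampal than in cortical neurons of culture. In tissue TIVA neurons the differences of that pair are -2.23 and -1.98.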

How the data were processed

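Each library came as a deposited file of integer counts over 28661 features named by UCSC identifiers. The submitters' processing notes name CASAVA 1.8.1, HTSeq and the build mm9, and which aligner, strand setting and overlap mode applied is not given in the sources used here. How reads were divided where features overlap, or lie antisense to each other, is therefore not known. The 5 HTSeq summary lines, holding 15.8% to 81.1% (no feature) and 0.589% to 10.9% (ambiguous) of reads, were left out of library totals.

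From the counts, CPM and mean log2(CPM + 10) were computed with Python 3.11.15, numpy 2.4.6 and pandas 2.3.3. Alternatives used edgeR 4.0.16 and DESeq2 1.42.0 for scaling factors only, a pseudocount of 1, summed counts, thinning to the smallest library and leaving libraries out. Differences of 1 or more, and of -1 or less, are called without a test. Poisson intervals are exact, at 95%. No replicate pair agreed within sampling noise (lowest chi-square per degree of freedom 37.6).

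Of 55419 single identifiers 0 matched a reference table, whose build is later, so symbols, marker lists, sequences and coordinates were not used. The rule for printed features stands in the text: at most 2 per direction, by size of the tissue TIVA difference. The members, lists and rules were chosen with earlier results of these data known.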

Additional observations from a re-analysis of the deposited data

Results flagged for a closer look

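In the cultured hippocampal TIVA neurons 57 of the 60 features were at 10 CPM or more in library 2, while the other 3 libraries each had 59. The gap is 2 features wide and is far only because the others are equal. The feature uc007sft.2:uc007sfs.2 was at 16.89 CPM in cultured cortical pipette neuron 2, while the other 3 neurons of that group lay between 0 and 0.3471 CPM. These were the 2 far libraries among 25 groups of values examined. A library was taken as far past Dixon's 95% critical value, which by its definition chance passes in about 1 in 20 groups.

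For the same feature the hippocampus minus cortex difference was -1.8706 when tissue pipette neurons were set against cortical tissue TIVA neurons and 2.1981 among cultured pipette neurons. All tissue pipette neurons were below both cortical neurons, and all cultured hippocampal pipette neurons were above all cultured cortical ones. The difference between these contrasts was not tested, and in tissue the collection differs together with the region.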

How the results depend on the processing

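The number of hippocampus-high features was 60, and it became 140 with CPM taken outside the 50 most abundant features of each library and 314 with a pseudocount of 1 CPM. It was 87 with TMM (49 shared with the 60), 73 with DESeq2 size factors (51 shared), 45 from summed counts (39 shared) and 63 after thinning (60 shared). With CPM outside the top 50 and with a pseudocount of 1, the features higher in tissue by 1 or more were 71 and 174, those lower 10 and 23, and those at 10 CPM or more in bulk 134 and 188. The lower count was 4 with TMM and 11 with DESeq2 size factors. The median of tissue pipette minus cortical TIVA neurons was 0.3408 with TMM, 0.1867 with DESeq2 size factors and 1.0776 from summed counts. The cause was not tested.

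Leaving out 1 library at a time gave 52 to 79 hippocampus-high features, of which at least 46 were shared, 29 to 42 higher and 1 to 4 lower in tissue, and 50 to 77 at 10 CPM or more in bulk. The tissue TIVA median ranged from 1.0163 to 1.6047 and the pipette median from 0.4093 to 1.1904. The lower count was 4 without either cortical tissue neuron or without hippocampal tissue TIVA neuron 5. Among the counts, medians and printed features of the set none changed sign, and the cortex-high median did, from 0.2223 to -0.0127 with DESeq2 size factors. No paired analysis was possible because replicate numbers only follow the order of the records and no test was run. Groups of 2 to 5 single cells from unnamed animals, and 2 shallow cortical tissue neurons in every tissue comparison, limit what these values can separate.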
